A study of Rattus norvegicus with 6 samples.

Results

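The 4 Id genes (Id1, Id2, Id3 and Id4) were followed in clonal rat INS-1 insulinoma lines together with 2 bone morphogenetic protein (BMP) receptor genes (Bmpr1a and Bmpr2) and 4 Smad genes (Smad1, Smad5, Smad6 and Smad7). These 10 genes were taken by name from the 32900 features of the deposited table, of which 21250 had a read. The list was drawn up with the PWS vs. control values of these libraries known, so that comparison describes the 10 genes here and carries no test. The lines descend from INS-1(832/13)::mCherry cells, a beta-cell model that carries a human INS-neoR and a mouse Ins2-C-mCherry transgene, and all grew in 7.5 mM glucose without further treatment. The 3 control lines (5-9, 2 and 16) have the Prader-Willi syndrome (PWS) domain deleted on the silent maternal allele. The 3 PWS lines (3, 19-1 and 19-4) have it deleted on both alleles, so the maternal deletion is common to all 6 lines. Each line is a clone with 1 rRNA-depleted total RNA library. Lines 2, 16, 3 and 19 were isolated from line 5-9, and line 19 was subcloned to give 19-1 and 19-4, which leaves 2 independent clones behind the 3 PWS lines.

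BMPs are secreted ligands that assemble type II receptors such as Bmpr2 with type I receptors such as Bmpr1a. The type I receptor phosphorylates Smad1, Smad5 and Smad9, which enter the nucleus with Smad4 and activate target genes. Id genes are classical targets, and so are the inhibitory Smads, Smad6 and Smad7, which feed back on the receptors. Id proteins have a helix-loop-helix domain without a DNA-binding region, bind E proteins and keep them from pairing with tissue-specific basic helix-loop-helix factors such as Neurod1.

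Between 26016478 and 36084261 reads per line were counted, with reads that align to several places counted at each. Values are normalized counts (counts divided by DESeq2's size factors), and 1 read is worth 0.909 to 1.20 normalized counts depending on the line. Snurf, a gene of the deleted domain, had 3442 to 4205 reads in control lines and 0 to 4 in PWS lines. All 11 beta-cell markers were detected, with a summed level of 519974 to 588878 normalized counts in control lines and 279402 to 490629 in PWS lines. Of 4 alpha-cell markers, 3 had reads, with sums of 185 to 217 normalized counts in the control and 181 to 294 in the PWS group. The alpha-cell hormone gene Gcg had 110 reads in PWS line 19-4 and 0 to 20 elsewhere. Of 2 delta-cell markers, Sst had no read in any line, and Hhex had 15 reads in line 19-4 and 1 to 3 elsewhere. The 5 acinar markers had at most 3 reads in each line. Whether these markers bear on the results was not tested. Without line 19-4 the log2 difference of Id4, described below, was -1.20. The 3 endothelial markers found in the table summed to between 2.39 and 12.7 normalized counts over the 6 lines. Values of different genes are not divided by length and are not ranked against each other. In these bulk cultures, fewer cells with a transcript and less of it per cell cannot be told apart.

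Of the 10 genes, Id4 was the gene whose PWS and control lines did not overlap. The groups did not overlap for 17.4% of all tested genes, with PWS lines wholly below for 9.01%. The lower Id4 level in PWS lines came with a wide range among the control lines and almost none among the PWS lines. Id1, Id3, Bmpr1a, Smad1 and Smad5 had overlapping groups and log2 differences between -0.11 and 0.10, and Smad7 was high in 1 control line. Id2 and Smad6 rested on 10 to 28 reads per line, and Bmpr2 had 1 read in all.

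Id4 (ENSRNOG00000016099) encodes the Id protein best known from neural and mammary progenitor cells. It had 1091 normalized counts in control line 5-9, 2652 in line 2 and 1639 in line 16. In the PWS lines it had 758 in line 3, 709 in line 19-1 and 733 in line 19-4. Every PWS line was below every control line, and the nearest control line was 5-9, the line from which all others were isolated. Control lines averaged 1794 ± 792 (SD, n = 3) normalized counts. PWS lines averaged 733 ± 24.2 (SD, n = 3), which gives a difference of -1.20 on the log2(normalized count + 1) scale with a standard error of 0.27. The highest control line was 2.43 times the lowest, while the highest PWS line was 1.07 times the lowest. Relative to line 5-9, Id4 stood at 2.43 in control line 2, 1.503 in control line 16, 0.694 in line 3, 0.650 in line 19-1 and 0.672 in line 19-4. Both kinds of derived clone differed from line 5-9, with the control clones above it and the PWS clones below it.

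**Figure D1:**
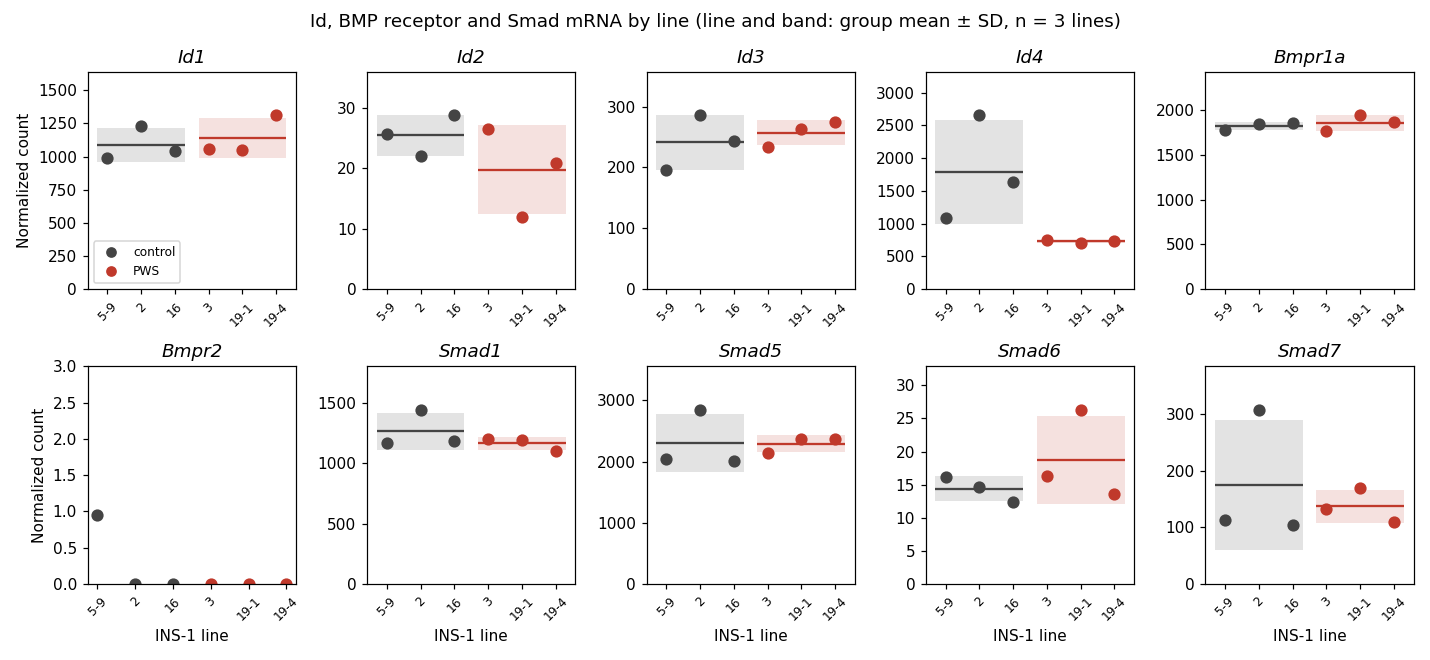
Normalized counts (y axis, from 0) of the 10 genes in each of the 6 INS-1 lines (x axis), with control lines in grey and PWS lines in red. Horizontal lines are group means and bands are ± 1 SD over 3 lines, left out for Bmpr2, which had 1 read. For Id4 the 3 PWS lines sit between 709 and 758, below the 3 control lines at 1091 to 2652.

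The Id4 difference did not rest on ambiguous reads, since 99.8% of its reads were kept by the default HTSeq counting, which drops reads that fit several places or features. With the default HTSeq counting the values ran from 1090 to 2639 in control lines and from 706 to 757 in PWS lines, and with RSEM from 726 to 1783 and from 464 to 514. The log2 difference was -1.20 in each of the 3 tables. Leaving out control line 2 brought it to -0.87 and leaving out control line 5-9 to -1.51, and it lay between -1.22 and -1.17 when any PWS line was left out.

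Across all genes, limma called 40 of 15579 tested genes at an adjusted p under 0.05, or 0.257% (0.00642% higher and 0.25% lower in PWS lines), and none of the 9 members that were tested was among them. At an unadjusted p under 0.05 limma gave 1 of the 9, which was Id4, against 11.3% of all tested genes. On the reads recovered from the table, edgeR called 0 of the 9 members where it called 0.205% of all genes (0.00642% higher and 0.199% lower). DESeq2 called Id4 where it called 1.47% of all genes (0.681% higher and 0.784% lower). Without control line 5-9 limma called Id4 as well. With the subclones 19-1 and 19-4 averaged into 1 value, which leaves 2 PWS values, the Id4 difference was -1.18 and limma called none of the members. DESeq2 was run with the subclones as separate lines. The paper also reports Id4 lower in PWS than in control lines by droplet digital RT-PCR, on separate biological replicates of the same lines. Those measurements were not used here. The groups did not overlap for 17.4% of all tested genes, with PWS lines wholly below control lines for 9.01% and wholly above for 8.43%, and a log2 difference at least as large as that of Id4 in either direction was found for 1.36%. Because the 10 genes were listed with these values known, the counts describe it and give no support of their own.

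Id1 (ENSRNOG00000021750), a main BMP-induced Id gene in many cells, had 991, 1233 and 1038 normalized counts in lines 5-9, 2 and 16 (control). In PWS lines 3, 19-1 and 19-4 it had 1055, 1049 and 1310. The groups overlapped, with line 5-9 the lowest and line 19-4 the highest of the 6. The log2 difference was 0.06 with a standard error of 0.12. Id3 (ENSRNOG00000026124), which is often co-expressed with Id1, had 196, 285 and 243 in the control lines and 234, 263 and 275 in the PWS lines, in the same order and unit. Line 5-9 was again the lowest, all 3 PWS lines lay inside the range of the control lines, and the log2 difference was 0.10 with a standard error of 0.15. Relative to line 5-9, Id3 was 1.20 to 1.40 times as high in the PWS lines and 1.24 to 1.46 times as high in the other control lines.

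Id2 (ENSRNOG00000007237), which is also known as a partner of the retinoblastoma protein, rested on few reads. It had 27, 24 and 28 reads in control lines 5-9, 2 and 16, and 26, 10 and 23 in PWS lines 3, 19-1 and 19-4. The 10 reads of line 19-1 have an exact Poisson 95% interval of 4.80 to 18.4 reads and the 24 of control line 2 one of 15.4 to 35.7 reads, so the intervals overlap, and they cover counting error alone. Id2 averaged 25.5 ± 3.37 normalized counts in control and 19.8 ± 7.36 in PWS lines (SD, n = 3 each). The log2 difference was -0.41 with a standard error of 0.32, and the difference shrank to -0.10 when line 19-1 was left out.

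**Figure D2:**
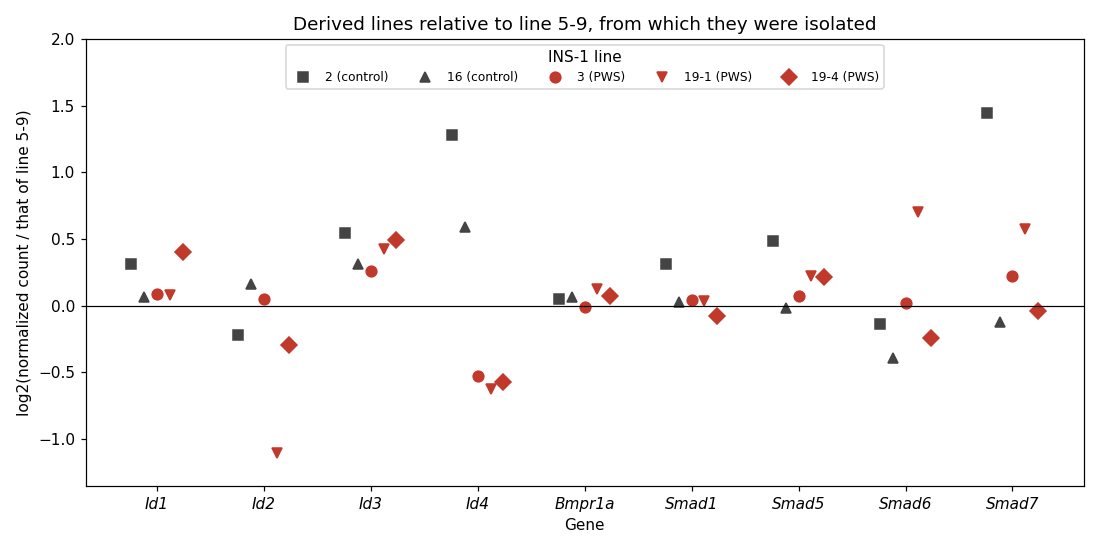
The log2 ratio of each gene's normalized count in the 5 derived lines to that in line 5-9 (y axis) for the 9 genes that averaged 5 normalized counts or more (x axis), with control lines in grey and PWS lines in red. For Id4 both derived control lines lie above 0 and all PWS lines below it, and control line 2 stands apart for Id4 and Smad7, at 2.43 and 2.72 times line 5-9.

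The promoter windows of the Id genes were read from the RefSeq table of assembly GRCr8, which holds 9 of the 10 genes. Each window has 250 bases before and 50 after the annotated start site, which for Id1, Id3, Smad1, Smad5 and Bmpr2 lies inside the region listed for the gene, so that their windows may not hold the outermost start. The Id windows are shown because Id genes are classical BMP targets, and those of Smad7 because it is an inhibitory target. Matches were sought on both strands for the CCAAT box (CCAAT), the TATA box (TATAAA), a GC-rich element that Smad1 and Smad5 bind (GGCGCC), the Smad box (GTCTG) and an E-box that E proteins bind (CACCTG). No searched motif overlaps another in the matches shown. Stretches of 30 bases are printed 5′ to 3′ on the gene's strand, with the matched letters in capitals.
Id1 CCAAT box, chr3:161671449-161671478, plus strand: ctccagcaacctATTGGttgcttttgaacg
Id1 TATA box, chr3:161671493-161671522, plus strand: tgggtccgccctTATAAAaggctggcccca
Id2 CCAAT box, chr6:47471117-47471146, minus strand: agctctcactcaCCAATgggaggattcgcc
Id2 CCAAT box, chr6:47471073-47471102, minus strand: gcacccctcccaCCAATggcgattcaggga
Id4 GC-rich element, chr17:16598244-16598273, minus strand: gcgcccctctggccgcaaGGCGCCgtcggg
Smad7 GC-rich element, chr18:71263400-71263429, plus strand: cagagccagccgGGCGCCtcgctcggtccg
Smad7 GC-rich element, chr18:71263460-71263489, plus strand: agccagccagccGGCGCCacgccgccgagc

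Id1 held 1 CCAAT match, at -103 from the start site, 1 TATAAA match, at -59, and 1 GTCTG match, at 24. Id2 held 3 CCAAT matches and no TATAAA. In the Id3 window none of the 5 motifs was found, and Id4 held GGCGCC once, after the start site at 39 (counted from 1 at the start). Of the 9 windows, those of Id4 and Smad7 held GGCGCC, which is present in 11.8% of all 27457 windows. CCAAT is in 37.7% of them, TATAAA in 14.3%, GTCTG in 50% and CACCTG in 18.7%. These matches describe letters in a short window. Distal elements were not examined.

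Among the receptors, Bmpr1a (ENSRNOG00000052469), a type I receptor for BMP2 and BMP4, was the steadiest of the genes. It was at 1774, 1839 and 1853 normalized counts in lines 5-9, 2 and 16 (control) and at 1759, 1938 and 1867 in PWS lines 3, 19-1 and 19-4. The groups overlapped, the highest of all lines was 19-1, and the log2 difference was 0.02 with a standard error of 0.07. Bmpr2 (ENSRNOG00000022196), the main type II receptor for BMPs, had 1 read in line 5-9 and 0 reads in the other 5 lines. It was not tested, because it averaged less than 5 normalized counts. A count of 0 was taken to leave room for 3 reads, worth 2.73 to 3.59 normalized counts in these lines, and both groups were at or under that limit. All 3 tables list it at this level. Whether reads of this gene fell outside its annotated exons was not tested.

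The receptor-activated Smads carry the BMP signal to the nucleus. Smad1 (ENSRNOG00000018483) was at 1167, 1446 and 1188 normalized counts in lines 5-9, 2 and 16 (control) and at 1205, 1196 and 1106 in PWS lines 3, 19-1 and 19-4. Smad5 (ENSRNOG00000022870) had 2038, 2846 and 2016 in the control lines and 2141, 2376 and 2366 in the PWS lines, in the same order. For both genes line 2 was the highest of the 6 lines and the groups overlapped. The log2 difference was -0.11 with a standard error of 0.10 for Smad1, and 0.01 with a standard error of 0.13 for Smad5.

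Smad7 (ENSRNOG00000018359), which blocks type I receptors of both the BMP and the TGF-beta branch, had 113, 308 and 104 normalized counts in lines 5-9, 2 and 16 (control). It had 132, 169 and 110 in PWS lines 3, 19-1 and 19-4. Line 2 was 2.72 times line 5-9, and the other control lines lay at or near the lowest PWS line. The log2 difference was -0.19 with a standard error of 0.39, and it was 0.31 without line 2, so its sign depended on that line. Smad6 (ENSRNOG00000009173), the inhibitory Smad that acts mainly on BMP receptors, had 17, 16 and 12 reads in the control lines and 16, 22 and 15 in PWS lines. Control lines averaged 14.4 ± 1.93 and PWS lines 18.8 ± 6.67 normalized counts (SD, n = 3 each), with overlapping groups and a log2 difference of 0.32 with a standard error of 0.32. This became 0.058 without line 19-1 and 0.508 without line 19-4.

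Control line 2 was the highest of the 3 control lines for 6 of the 9 tested members (Id1, Id3, Id4, Smad1, Smad5 and Smad7), where it was the highest for 38.7% of all tested genes. For 5 of them it was also the highest of all 6 lines, against 24.5% of all tested genes. The median log2 difference of the 9 members was 0.01, beside -0.0028 for all tested genes, and it was 0.16 without line 2. With each line left out in turn, the log2 difference ran from -0.04 to 0.16 for Id1, from -0.64 to -0.10 for Id2, from -0.04 to 0.23 for Id3, from -0.17 to -0.012 for Smad1, from -0.07 to 0.18 for Smad5, from -0.47 to 0.31 for Smad7 and from -0.0074 to 0.06 for Bmpr1a. Without line 2 Id4 was at -0.87 and Id2 at -0.504, Smad1 was at -0.012, and the other tested members were above 0.

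The rest of the pathway was read from lists by role, 113 genes in all, of which 64 averaged 5 normalized counts or more and were tested. None of the 64 passed an adjusted p of 0.05 in limma, in edgeR or in DESeq2. At an unadjusted p under 0.05 limma gave 3 higher and 7 lower, where it gave 6% of all tested genes higher and 5.35% lower. PWS lines lay wholly above control lines for 4 of the 64 and wholly below for 6, beside 8.43% and 9.01% of all tested genes. The median log2 difference of the 64 was -0.02, and the smallest adjusted p in limma was 0.283.

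**Figure D3:**
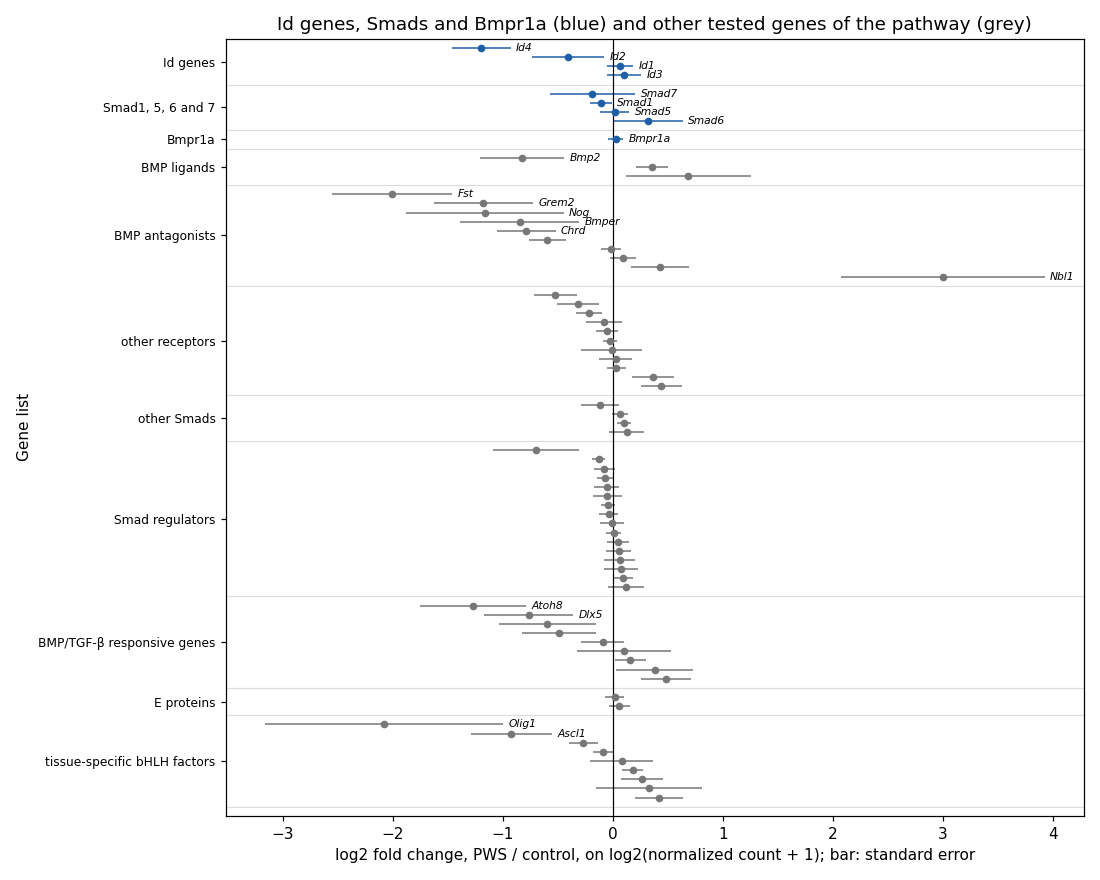
The log2 fold change, PWS over control, on the log2(normalized count + 1) scale (x axis) with its standard error (bars) for the 9 tested Id, Smad and Bmpr1a genes (blue) and 64 other genes of the pathway (grey), grouped by role (y axis), with names for the blue points and for the grey points farthest from 0. Id4 is at -1.20 and the other blue points lie between -0.41 and 0.32, while the widest spread is among BMP antagonists, from -2.01 for Fst to 3.00 for Nbl1.

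Of 14 BMP ligand genes, 10 had no read in any line and 3 were tested. Bmp3, an atypical BMP that antagonizes the others and was singled out after its values were seen, averaged 2061 ± 332 normalized counts in control and 2643 ± 485 in PWS lines (SD, n = 3 each), a log2 difference of 0.35 (standard error 0.15, adjusted p = 0.430 in limma). Bmp2, a canonical ligand, averaged 121 ± 34.1 in control and 72.5 ± 39.4 in PWS lines, a difference of -0.83 (standard error 0.38, limma, adjusted p = 0.467). It ran from -1.23 without line 19-1 to -0.46 without line 19-4. Gdf6 had the highest difference, 0.68 (standard error 0.57), from 2 to 13 reads per line, and it ran from 0.28 without line 16 to 1.32 without line 2. The PWS and control lines overlapped for all 3.

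Of 17 BMP antagonists, 10 were tested, with a median log2 difference of -0.69, or -0.51 without control line 2. Of the 10, 7 were lower on average in PWS lines. Among all tested genes 50.7% were lower, and the median over all of them was -0.0028. Fst, the activin-binding protein follistatin, had 15, 11 and 18 reads in control lines 5-9, 2 and 16 and 7, 1 and 2 in PWS lines 3, 19-1 and 19-4, a difference of -2.01 (standard error 0.55, adjusted p = 0.283 in limma). Nbl1 stood at 150, 29.4 and 7.19 normalized counts in lines 5-9, 2 and 16 (control) and at 500.2, 252 and 149 in PWS lines 3, 19-1 and 19-4, a difference of 3.00 (standard error 0.93, adjusted p = 0.323 in limma). For Nbl1, line 19-4 and line 5-9 had nearly the same value, the groups overlapped, and the difference was 1.98 without line 16 and 4.08 without line 5-9. Crim1 averaged 114 ± 16.9 normalized counts in control and 74.7 ± 4.93 in PWS lines (SD, n = 3 each), a difference of -0.60 (standard error 0.17, adjusted p = 0.285 in limma), a gene chosen after its values were seen. PWS lines lay wholly below control lines for 3 of the 10 (Chrd, Crim1 and Fst) and wholly above for 1 (Chrdl1), beside 9.01% and 8.43% of all tested genes. Chrd and Chrdl1 were likewise singled out after their values were seen.

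Of 17 other receptors and coreceptors, 11 were tested. Bambi, a pseudoreceptor that is itself induced by BMP, was at 713, 956 and 673 normalized counts in lines 5-9, 2 and 16 (control) and at 630, 611 and 400.04 in PWS lines 3, 19-1 and 19-4. Its log2 difference was -0.52 (standard error 0.20; limma, adjusted p = 0.387), or -0.31 without line 19-4. Among the 11 genes, PWS lines lay wholly below control lines for Bambi and wholly above for Acvr2b, a type II receptor singled out after its values were seen, beside 9.01% and 8.43% of all tested genes. Acvr2b had a log2 difference of 0.36 (standard error 0.19, adjusted p = 0.517 in limma), or 0.18 without control line 5-9. Acvr1, a type I receptor for BMP6 and BMP7, averaged 114 ± 22.2 in control and 154 ± 25.3 in PWS lines (SD, n = 3 each), a difference of 0.44 (standard error 0.19, adjusted p = 0.432 in limma). Bmpr1b, another type I receptor, had no read in any line, nor did Acvrl1 and Tgfbr2.

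The other 4 Smads had log2 differences between -0.12 for Smad9 and 0.12 for Smad3, both within 1 standard error of 0. The Smad3 difference ran from 0.013 without line 2 to 0.25 without line 16. Smad4, the shared partner Smad, was wholly above in PWS lines, at 2285 to 2399 against 2180 to 2217 normalized counts in control lines, a log2 difference of 0.10 (standard error 0.06, adjusted p = 0.572 in limma), and was singled out after its values were seen. Only 3.35% of the Smad9 reads were kept by the default counting, so most of its 136 to 205 normalized counts rest on reads that the default counting drops, and its log2 difference was 0.28 under the default counting and -1.89 with RSEM. The 16 regulators of Smads were all tested and ran from -0.70 for Zeb2 (-0.39 without line 2 and -0.38 without line 19-4) to 0.12 for Ski (0.26 without line 2), with a median of -0.02. Smurf2, a ubiquitin ligase for receptors and Smads, was the regulator, 1 of 16, whose groups did not overlap, where PWS lines lay wholly below for 9.01% of all tested genes. Its log2 difference was -0.13 (standard error 0.06, limma, adjusted p = 0.474). Smurf2 was chosen after its values were seen.

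Of 15 other BMP- or TGF-beta-responsive genes, 9 were tested. Atoh8, a direct BMP target in liver and endothelium, had 20, 48 and 18 reads in control lines 5-9, 2 and 16 and 9, 15 and 6 in PWS lines 3, 19-1 and 19-4, a log2 difference of -1.27 (standard error 0.49, adjusted p = 0.395 in limma). Its groups did not overlap in normalized counts, although line 19-1 with 17.9 lay close to line 16 with 18.5. PWS lines lay wholly below for 1 of the 9 and wholly above for 1, beside 9.01% and 8.43% of all tested genes. Among the 9 genes, 4 had a higher and 5 a lower mean in PWS lines. Their median log2 difference was -0.09, or 0.13 without control line 2.

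The partners of Id proteins were counted as well. Of the E proteins, Tcf3 and Tcf12 had log2 differences of 0.06 and 0.01 with standard errors of 0.09, and Tcf4 had no read in any line. As for Bmpr2, whether reads of Tcf4 fell outside its annotated exons was not tested. Of 27 tissue-specific basic helix-loop-helix genes, 9 were tested and 12 had no read. They ran from -2.08 for Olig1 (standard error 1.08, adjusted p = 0.517 in limma), which had 4 to 20 reads in control lines and 14, 0 and 0 in PWS lines, to 0.42 for Bhlha15 (standard error 0.22, adjusted p = 0.510 in limma). Bhlha15 was at 0.20 without line 2 and 0.68 without line 16, and Olig1 at -3.39 without line 3. Neurod1, which drives insulin gene expression with E proteins, had 2700 to 3454 normalized counts over the 6 lines and a log2 difference of -0.09 with a standard error of 0.09; it was chosen after its values were seen.

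The genes whose profile over the 6 lines was nearest to that of Id4 were looked for among the 12737 other genes that averaged 50 normalized counts or more, by the root mean square difference of their centred log2 values. Samd5, which encodes a sterile alpha motif protein, was nearest at 0.127. It was at 61.7, 122 and 78.1 normalized counts in lines 5-9, 2 and 16 (control) and at 39.8, 38.3 and 32.7 in PWS lines 3, 19-1 and 19-4. Klf2, a Krüppel-like transcription factor, followed at 0.173, and AABR07044414.1, a feature without a gene symbol, at 0.183, but 0.229% of the reads of the latter were kept by the default counting. All 3 had control line 2 highest and the 3 PWS lines lowest, as Id4 had, which follows from how they were chosen. Id1 and Id3 were at 0.697 and 0.691, ranked 5358 and 4875 of the 12737 genes, and Smad7 at 0.603, ranked 1323. Bmpr1a, the steadiest of the members, was at 0.710, ranked 6201. The values were not scaled, so any gene that varies little lies at a similar distance from Id4. This measure describes 6 lines that share an origin, and gives no p.

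**Figure D4:**
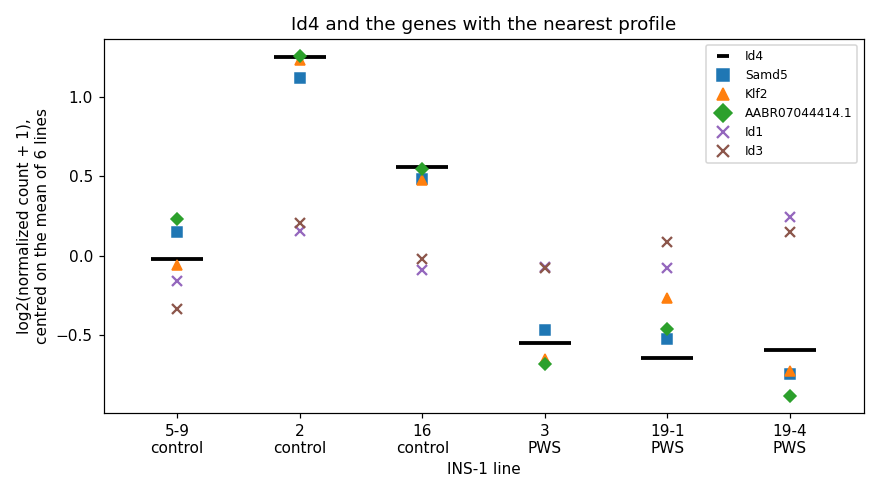
Log2(normalized count + 1), centred on the mean of the 6 lines (y axis), in each INS-1 line (x axis) for Id4 (black bars), the 3 genes with the nearest profile (filled symbols) and Id1 and Id3 (crosses). Id4 and its nearest genes peak in control line 2 and are lowest in the 3 PWS lines, while Id1 and Id3 span a narrower range, with line 5-9 the lowest.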

How the data were processed

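Total RNA-seq of 3 control and 3 PWS INS-1 lines was analysed, 1 library per line, with columns mapped to lines by group and number. Per the submitters' processing notes and the study's methods, the authors used FastQC 0.11.5, cutadapt, STAR 2.7.0e, HTSeq 0.11.2 and RSEM 1.3.1 on the Ensembl rat genome with added transgenes. The unit of the deposited values is a signal: the authors divided counts by size factors from DESeq2. There is a table each for HTSeq nonunique all (used here), HTSeq nonunique none and RSEM. The authors' own fold changes and p-values, also in the tables, were not used. In both tables from HTSeq, 100% of values above 0 were whole multiples, within 0.01 reads, of the smallest value in their column, which gave back the reads.

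Groups were compared with limma 3.58.1 in R 4.3.3 (eBayes with trend) on log2(normalized count + 1), which understates changes of low genes, on 15579 genes averaging 5 or more, with Benjamini-Hochberg adjustment over all of them and a threshold of 0.05. edgeR 4.0.16 and DESeq2 1.42.0 on the recovered reads were alternatives. Nothing shows more than 1 culture per line behind these libraries. The p-values therefore measure the spread between lines, taking the subclones 19-1 and 19-4 as separate, and 3 lines against 3 allow no exact two-sided p under 0.1. The fits were tested on simulated data. The members and lists were chosen with earlier results of these data known. Named were the members, the extremes of each list, any gene past the threshold and the 3 genes nearest to Id4; others are marked, and 1 of the extremes is not reported here. Counting intervals and the limit of 3 reads cover counting error only.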

Additional observations from a re-analysis of the deposited data

How the results depend on the processing

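The members and the 3 genes nearest to Id4 are described without a test of their own. The log2 difference of 5 members crossed 0 in some setting: Id1 was at -0.042 without PWS line 19-4, Id3 at -0.039 without control line 5-9, Bmpr1a at -0.0074 without PWS line 19-1, Smad7 at 0.31 without control line 2, and Smad5 as low as -0.072 without control line 16. DESeq2 called Samd5 and AABR07044414.1 beside Id4, which limma did not. Among the other named genes none passed the threshold in any setting. Of these, log2 fold changes turned in sign for Smad9 under nonunique none counting (0.28) and for Tcf12 with RSEM (-0.016). With a line left out, Smad9 ran from -0.27 to 0.024 (the highest without control line 2), Tcf3 from -0.0043 (without control line 16) to 0.14, and Tcf12 from -0.029 (without control line 16; also below 0 without PWS line 3 or 19-1) to 0.074. Among the members limma called 0, against 1 (Id4) with DESeq2 and 0 to 1 with a line left out, the 1 being Id4 without control line 5-9. The median of the members lay between -0.072 and 0.16 with a line left out, the highest without control line 2. No pathway gene was called in any setting. Over all genes the 40 calls became 228 with DESeq2, 9 with a mean of at least 50, 16 with nonunique none counting and 12 with RSEM, and 33 to 55 with a line left out; the causes were not tested. With lines 19-1 and 19-4 averaged, 36 genes, 0 members and 0 pathway genes were called, and the median of the members was -0.011. Replicate numbers pair the lines in name only: deviations of same-numbered lines correlated at 0.00345, 0.0467 and 0.00513 across genes, and not every line was closest to its own number. With the replicate number as a replicate block, 36 genes, 0 members and 0 pathway genes were called, and the median of the members was 0.01. Id2 and Smad6 rest on 10 to 28 reads per line and Bmpr2 on 1 read in all.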
